A study of Mus musculus with 10 samples.

Results

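Sebum and the lipid matrix of the skin barrier are made by a set of enzymes that build fatty acids, lengthen and desaturate them, and join them into waxes, triglycerides and ceramides. Transcripts of 44 such genes, chosen by symbol, were read from a count table of 55421 genes, and all 44 symbols were found in it. The tissue was ulcer tissue of db/db mice, which lack a working leptin receptor and become obese and diabetic, and the ulcers were made by surgical excision. One group of 5 libraries was made from ulcers treated with saline plus Fu Huang ointment, and the other 5 libraries were from ulcers that had saline alone. The db/db mutation and the excision were shared by both groups, and the labels set 7 days of administration. No label states the strain background, sex or age, or whether each library came from its own animal, so p-values measure only how these libraries vary, and some of that may be technical. Library totals were 47.8 to 62.9 M counts (M, mega) with ointment and 58.1 to 62.7 M with saline. Values are counts per M counts (CPM), scaled with edgeR's TMM factors.

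The pathway starts in the cytosol, where citrate is cleaved to acetyl-CoA, carboxylated to malonyl-CoA and assembled into palmitate. Elongases and desaturases then adjust chain length and saturation. In sebaceous glands the products go mainly into wax esters, triglycerides and cholesterol esters. In the upper epidermis they go into ceramides with very long acyl chains, which are packed into lamellar granules and extruded between the cornified cells. Ichthyosis in humans follows from loss of several of these genes, among them ABCA12, ALOX12B, ALOXE3, PNPLA1 and CERS3.

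The promoters of 5 members are printed because these genes stood at the ends of the comparison: Abca12 and Sptlc3 had the smallest p-values among members with lower levels in ointment ulcers, Cers2 and Fads3 had the smallest among those with higher levels, and Elovl5 was the single member whose groups did not overlap. Each sequence runs 5′ to 3′ on the gene's strand and covers 250 bases before and 50 after the RefSeq start site (RefSeq, GRCm38.p6), and capitals mark CCAAT and GGGCGG, the core letters bound by NF-Y and Sp1, on either strand. For Cers2, which has a pair of RefSeq start sites, the upstream one is shown.
Abca12: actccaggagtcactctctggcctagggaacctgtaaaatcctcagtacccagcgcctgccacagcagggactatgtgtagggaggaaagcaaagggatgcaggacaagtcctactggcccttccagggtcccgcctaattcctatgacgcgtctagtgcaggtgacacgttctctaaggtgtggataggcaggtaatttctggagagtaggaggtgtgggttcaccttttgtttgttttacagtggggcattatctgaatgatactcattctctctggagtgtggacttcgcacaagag
Sptlc3: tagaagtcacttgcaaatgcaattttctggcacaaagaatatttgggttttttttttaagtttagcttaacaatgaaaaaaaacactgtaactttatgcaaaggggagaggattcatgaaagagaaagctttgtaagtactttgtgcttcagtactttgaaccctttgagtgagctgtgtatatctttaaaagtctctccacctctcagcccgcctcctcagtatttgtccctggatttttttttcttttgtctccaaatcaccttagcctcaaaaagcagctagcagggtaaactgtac
Cers2: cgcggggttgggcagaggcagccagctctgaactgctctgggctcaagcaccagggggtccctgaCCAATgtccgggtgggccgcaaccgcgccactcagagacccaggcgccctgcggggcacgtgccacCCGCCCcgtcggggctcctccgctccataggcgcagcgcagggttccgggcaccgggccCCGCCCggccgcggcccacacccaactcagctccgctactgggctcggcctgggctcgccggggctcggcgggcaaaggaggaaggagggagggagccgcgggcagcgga
Fads3: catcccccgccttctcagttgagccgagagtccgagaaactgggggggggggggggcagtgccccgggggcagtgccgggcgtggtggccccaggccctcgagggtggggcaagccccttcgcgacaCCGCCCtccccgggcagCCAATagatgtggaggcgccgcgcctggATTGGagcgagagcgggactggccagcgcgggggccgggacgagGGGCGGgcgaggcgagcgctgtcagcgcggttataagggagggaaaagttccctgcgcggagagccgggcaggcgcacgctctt
Elovl5: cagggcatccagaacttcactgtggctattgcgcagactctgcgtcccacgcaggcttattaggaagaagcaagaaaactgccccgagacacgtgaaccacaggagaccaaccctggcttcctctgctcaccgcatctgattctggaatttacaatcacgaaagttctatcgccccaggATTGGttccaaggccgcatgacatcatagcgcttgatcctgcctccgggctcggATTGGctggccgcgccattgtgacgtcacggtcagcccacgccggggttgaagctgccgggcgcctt
These windows lie at chr1:71414861-71415160 (minus strand) for Abca12, chr2:139493663-139493962 (plus) for Sptlc3, chr3:95314940-95315239 (plus) for Cers2, chr19:10041298-10041597 (plus) for Fads3 and chr9:77917115-77917414 (plus) for Elovl5. CCAAT occurred 0 times in the windows of Abca12 and Sptlc3, 1 time in that of Cers2 and 2 times in those of Fads3 and Elovl5. GGGCGG occurred 2 times in the Cers2 window and 2 times in the Fads3 window and was not in the other windows printed. The window at the downstream Cers2 start site, not printed, held CCAAT 0 times and GGGCGG 0 times. No RefSeq promoter was found for Elovl3, Scd1, Scd2, Fads1, Dgat1, Dgat2, Mogat2 and Aloxe3, so these were not searched. RefSeq promoters were found for the other 36 of the 44 members. Over the 40 windows of those members, 45.0% held CCAAT and 57.5% held GGGCGG, against 37.4% and 35.7% of all 32851 windows. The sterol response letters TCACNCCAC were in 0 of the 40 and in 1.24% of all windows, which says only that these letters were not in these windows.

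No lipid synthesis gene passed the test between ointment and saline ulcers. Of the 44 members, 43 had enough counts to be tested, and Elovl2, an elongase of polyunsaturated fatty acids, did not (0 to 0.537 CPM with ointment and 0 to 0.316 CPM with saline). edgeR's quasi-likelihood test, adjusted over all 18509 genes by the Benjamini-Hochberg method, called 0 of the 43 members at a threshold of 0.05. It called 310 of all genes (1.67%; 0.692% higher and 0.983% lower in ointment ulcers), a share at which fewer than 1 of 43 would be called. At an unadjusted p under 0.05 there were 14 members, 5 with higher and 9 with lower levels in ointment ulcers, while 17.1% of all genes (8.59% higher, 8.56% lower) lay under that value. The groups did not overlap for 1 of the 43 members, Elovl5, which was lower, against 6.54% of all genes (3.11% higher, 3.44% lower). DESeq2 called 4 members, Abca12, Sptlc3 and Scd3 lower and Cers2 higher, where it called 6.75% of all genes it tested. limma voom called 0 members and 1.93% of all genes.

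The median log2 fold change over the 43 members was -0.31, and that over all genes tested was -0.003. Fold changes were negative for 27 members and positive for 16. All 4 genes of fatty acid synthesis, all 6 elongases tested and all 5 genes of barrier lipid oxidation and transport had negative values. Neutral lipid and wax genes were mostly positive (7 of 9, and 6 of 9 when scaled by the upper quartile or by library size alone, where Soat1 turned). Their count of negative values was 2 with all libraries and the main settings, and up to 4 in the alternatives given below, 8 of which differed. Desaturases were mixed (3 positive, 4 negative), and ceramide genes were split evenly (6 and 6). Because the samples were pieces of whole tissue, fewer cells of a type and less RNA per cell cannot be told apart.

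**Figure D1:**
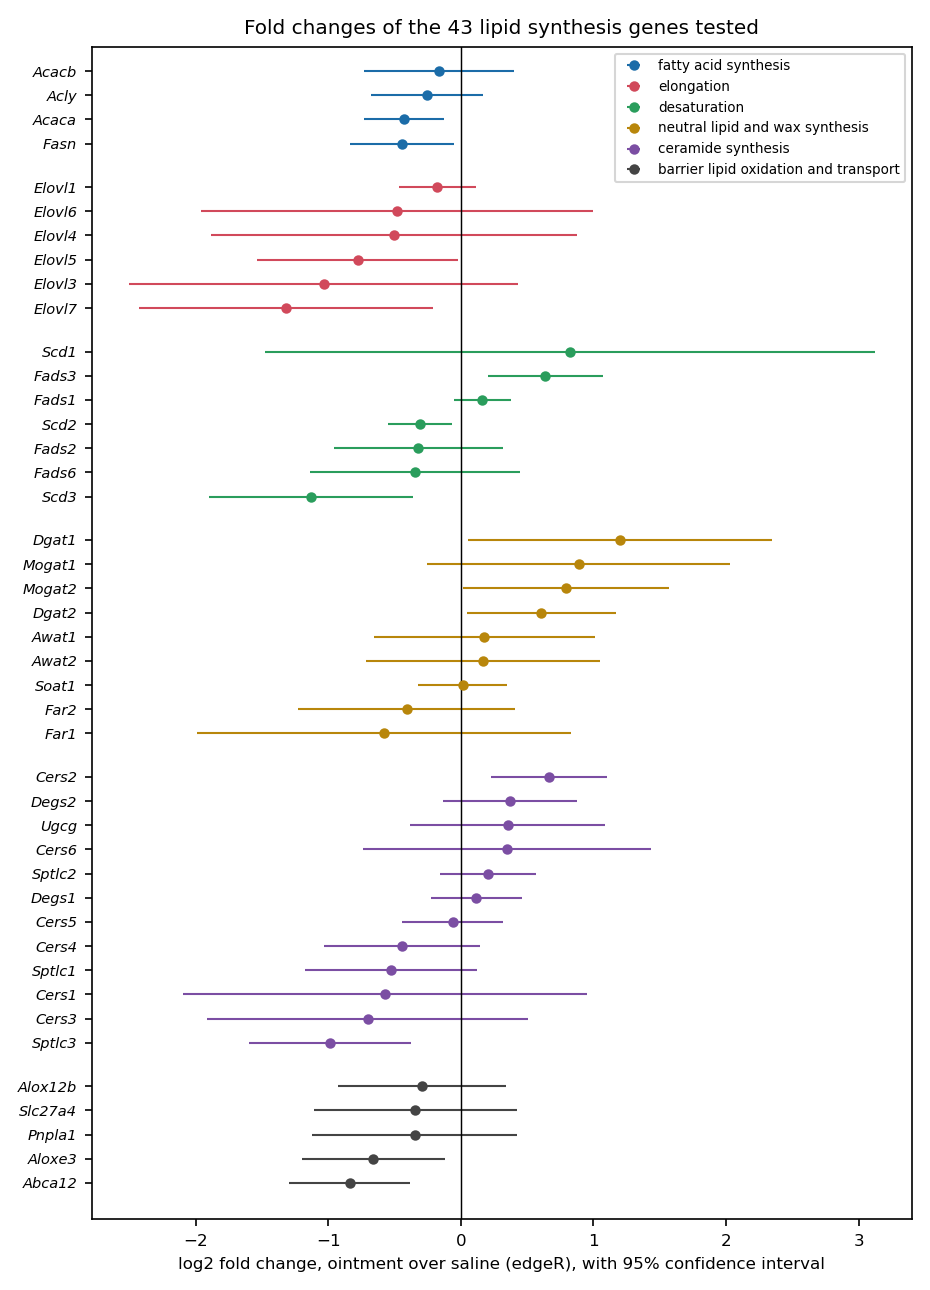
Log2 fold changes, ointment over saline, of the 43 members tested, grouped by role. Points are edgeR estimates and bars their 95% confidence intervals; the intervals of 14 genes exclude 0 before adjustment, and none of the 43 passed after it.

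Enzymes of fatty acid synthesis had somewhat lower means in ointment ulcers. Acaca, the acetyl-CoA carboxylase that commits carbon to fatty acid synthesis (GRCm38, as for all gene positions; chromosome 11, 84129672 to 84401651), was at 36.2, 30.4, 26.1, 33.9 and 29.1 CPM in ointment libraries 1 to 5, against 48.95, 38.8, 48.3, 39.2 and 34.2 CPM in saline libraries 1 to 5. Of the ointment libraries, 4 lay below every saline library, and ointment 1 lay above saline 5. The difference did not pass (log2 fold change -0.43 with SE 0.14, and adjusted p = 0.144 by edgeR). The annotated transcripts of Acaca share 30.4% of their 50-base windows with other genes, the predicted gene Gm5182 first among them, so its reads could have been split. Fasn, which assembles palmitate (chromosome 11, 120805846 to 120824547), was at 145, 134, 91.5, 133 and 92.9 CPM in ointment libraries 1 to 5, against 153, 172, 210.3, 139 and 137 CPM in saline libraries 1 to 5. Ointment 3 and ointment 5 were the lowest libraries, saline 3 was the highest, and the groups overlapped (log2 fold change -0.44 with SE 0.18, and adjusted p = 0.236 by edgeR). Acly, which cleaves citrate to acetyl-CoA, averaged 169.7 ± 41.7 CPM with ointment and 202 ± 30.8 CPM with saline (SD, n = 5 in each group, as for all such values; log2 fold change -0.26 with SE 0.19, and adjusted p = 0.57 by edgeR). Acacb, the mitochondrial isoform whose malonyl-CoA restrains fatty acid oxidation, averaged 48.1 ± 15.7 CPM with ointment and 53.97 ± 16.1 CPM with saline (log2 fold change -0.17 with SE 0.26, and adjusted p = 0.821 by edgeR). Its estimate rested on saline 3, which held 82.0 CPM where the other saline libraries held 41.1 to 51.8, and was 0.02 without that library.

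Each tested elongase had a lower mean in ointment ulcers. Elovl5, an elongase of polyunsaturated fatty acids (chromosome 9, 77917364 to 77984519), was at 126, 142, 31.5, 134 and 117 CPM in ointment libraries 1 to 5, against 234, 174, 209, 157 and 169 CPM in saline libraries 1 to 5. Every ointment library lay below every saline library, and ointment 3 lay far below the rest. The difference did not pass (log2 fold change -0.78 with SE 0.34, and adjusted p = 0.279 by edgeR), and without ointment 3 the log2 fold change was -0.54. Elovl7, an elongase of saturated and monounsaturated chains (chromosome 13, 108214404 to 108285683), was at 17.7, 65.5, 57.8, 22.9 and 32.2 CPM in ointment libraries 1 to 5, against 64.3, 106, 172, 117 and 29.4 CPM in saline libraries 1 to 5. Saline 1 and saline 5 lay within the ointment range and the other 3 saline libraries above it (log2 fold change -1.32 with SE 0.50, and adjusted p = 0.21 by edgeR; -1.03 without saline 3). Elovl3, an elongase of sebaceous glands and brown fat (chromosome 19, 46131897 to 46135694), was at 60.7, 63.7, 37.95, 26.2 and 15.6 CPM in ointment libraries 1 to 5, against 67.7, 90.7, 209.9, 36.9 and 12.8 CPM in saline libraries 1 to 5. Saline 3 was the highest and saline 5 the lowest of all libraries, so saline ulcers alone spanned the range (log2 fold change -1.03 with SE 0.66, and adjusted p = 0.486 by edgeR; -0.36 without saline 3). Elovl1, which makes very long saturated chains for ceramides, differed little between groups, at 116 ± 5.52 CPM with ointment and 131 ± 24.98 CPM with saline (log2 fold change -0.18 with SE 0.13, and adjusted p = 0.572 by edgeR).

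Elovl4 makes the ultra-long chains of acylceramides, and its levels were high and uneven at 446, 1073, 431, 78.7 and 731 CPM in ointment libraries 1 to 5, against 1146, 793, 188, 1091 and 698 CPM in saline libraries 1 to 5. Ointment 4 and saline 3 were the low libraries, 1 in each group (log2 fold change -0.51 with SE 0.62, and adjusted p = 0.761 by edgeR). Elovl6, which lengthens palmitate to stearate, ranged over 27.5 to 905 CPM with ointment and 371 to 990.2 CPM with saline (log2 fold change -0.48 with SE 0.66, and adjusted p = 0.792 by edgeR). Its lowest value was in ointment 5 and lay below the next library by a factor of 11.1.

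The stearoyl-CoA desaturases, which place the double bond of oleate and palmitoleate, lie side by side on chromosome 19 and had estimates of different sign. Scd1 (44394455 to 44407879) was at 278, 3420, 138, 1340 and 1872 CPM in ointment libraries 1 to 5, against 142, 1246, 2278, 163 and 150.4 CPM in saline libraries 1 to 5. Its values formed a low set of 5 libraries (138 to 278 CPM) and a high set of 5 (1246 to 3420 CPM), with libraries of both groups in each set. The estimate was therefore wide (log2 fold change 0.82 with SE 1.03, and adjusted p = 0.767 by edgeR; 95% confidence interval -1.47 to 3.12), and it was 0.19 without ointment 2 and 1.71 without saline 3. Scd2 (44293674 to 44306864) was even by comparison, at 280.3, 247, 301, 219 and 229.7 CPM in ointment libraries 1 to 5, against 338, 309.7, 291, 313 and 328 CPM in saline libraries 1 to 5. Ointment 3 lay above saline 3, and the other 4 ointment libraries lay below all saline libraries (log2 fold change -0.31 with SE 0.11, and adjusted p = 0.181 by edgeR). Scd3 (44203269 to 44244016) was the least abundant of these desaturases, at 4.304, 6.17, 7.13, 11.3 and 9.75 CPM in ointment libraries 1 to 5, against 29.6, 15.9, 17.7, 10.5 and 11.02 CPM in saline libraries 1 to 5. Saline 1 was the highest library, and ointment 4 lay above saline 4 and saline 5 (log2 fold change -1.13 with SE 0.35, and adjusted p = 0.131 by edgeR). The test of Scd3 gave an adjusted p of 0.0342 by DESeq2. Of their 50-base windows, Scd1, Scd2 and Scd3 share 4.6%, 4.0% and 6.6% with other genes, mainly each other.

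Among the front-end desaturases, Fads3, which acts on sphingoid bases (chromosome 19, 10041569 to 10060110), had a higher mean in ointment ulcers, at 43.02, 51.6, 43.1, 53.3 and 61.9 CPM in ointment libraries 1 to 5, against 32.6, 48.2, 23.6, 30.5 and 27.5 CPM in saline libraries 1 to 5. The groups overlapped through saline 2 (log2 fold change 0.64 with SE 0.20, and adjusted p = 0.13 by edgeR), and without saline 2 the gene passed (adjusted p = 0.0431 by edgeR, log2 fold change 0.84). Fads1, a desaturase of polyunsaturated fatty acids, was among the most even members, at 61.3 ± 3.88 CPM with ointment and 54.9 ± 5.28 CPM with saline (log2 fold change 0.16 with SE 0.10, and adjusted p = 0.452 by edgeR). Its neighbour Fads2, which starts the same pathway, averaged 13.1 ± 4.800 CPM with ointment and 16.3 ± 4.03 CPM with saline (log2 fold change -0.32 with SE 0.29, and adjusted p = 0.65 by edgeR). Fads6 averaged 6.26 ± 2.14 CPM with ointment and 7.95 ± 3.48 CPM with saline (log2 fold change -0.35 with SE 0.35, and adjusted p = 0.705 by edgeR).

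**Figure D2:**
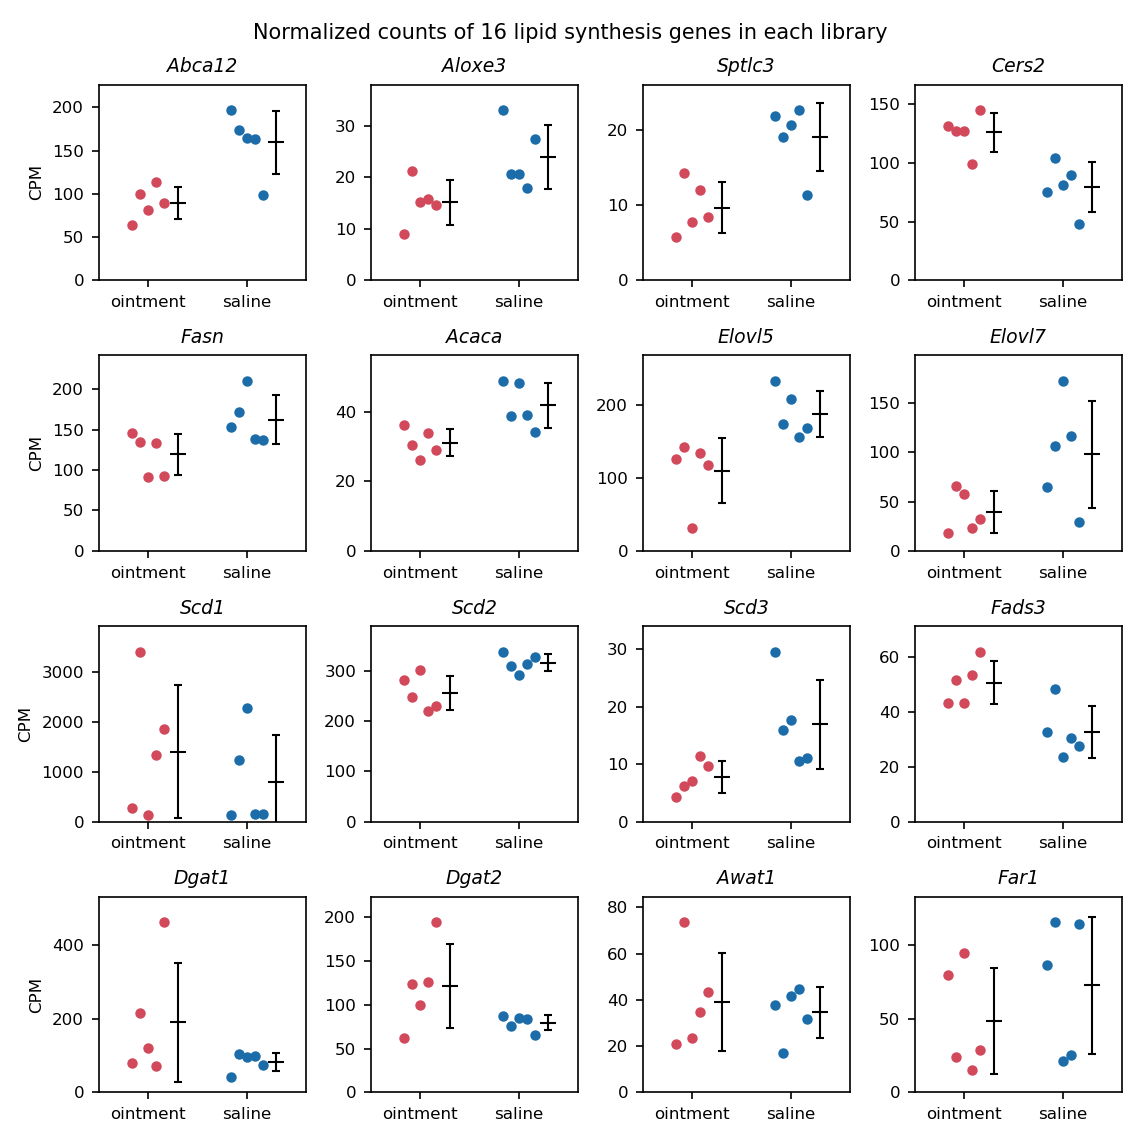
CPM of 16 members in each library, ointment left and saline right, libraries 1 to 5 from left to right within a group. The black mark and bar give the mean ± SD of 5 libraries, cut at 0 for Scd1 in saline; Elovl5 shows no overlap between groups, and Scd1 and Far1 fall into a low and a high set in both groups.

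Enzymes of triglyceride and wax synthesis showed mostly positive fold changes, and Dgat1 and Dgat2 were highest in ointment 5. Dgat1, which catalyses the last step of triglyceride synthesis (chromosome 15, 76502015 to 76511953), was at 80.5, 216, 121, 71.2 and 462 CPM in ointment libraries 1 to 5, against 41.5, 104, 95.4, 98.6 and 73.3 CPM in saline libraries 1 to 5. Ointment 5 was more than 2 times as high as any other library, and the remaining libraries overlapped. The difference did not pass (log2 fold change 1.20 with SE 0.52, and adjusted p = 0.268 by edgeR), and the log2 fold change was 0.57 without ointment 5. Dgat2, an unrelated enzyme for the same step (chromosome 7, 99153658 to 99182719), was at 62.6, 123, 99.9, 126 and 194 CPM in ointment libraries 1 to 5, against 87.3, 75.5, 85.2, 83.7 and 66.03 CPM in saline libraries 1 to 5. Of the ointment libraries, 4 lay above all saline libraries and ointment 1 lay below all of them (log2 fold change 0.61 with SE 0.25, and adjusted p = 0.252 by edgeR; 0.37 without ointment 5). Mogat2 and Mogat1, which form diacylglycerol from monoacylglycerol, had low counts, and 12.8% of the exon length of Mogat1 overlaps an antisense gene. Mogat2 averaged 1.39 ± 0.411 CPM with ointment and 0.803 ± 0.363 CPM with saline (log2 fold change 0.79 with SE 0.35, and adjusted p = 0.28 by edgeR) and Mogat1 0.457 ± 0.225 CPM with ointment and 0.246 ± 0.1399 CPM with saline (log2 fold change 0.89 with SE 0.51, and adjusted p = 0.428 by edgeR).

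Waxes are made in sebaceous glands by the acyltransferases Awat1 and Awat2, from fatty alcohols supplied by Far1 and Far2. Awat1 (chromosome X, 100572251 to 100578205) was at 20.7, 73.5, 23.4, 34.8 and 43.3 CPM in ointment libraries 1 to 5, against 37.9, 16.8, 41.7, 44.7 and 31.7 CPM in saline libraries 1 to 5. Ointment 2 was the highest library and the others of both groups overlapped (log2 fold change 0.18 with SE 0.37, and adjusted p = 0.878 by edgeR; -0.18 without ointment 2; 95% confidence interval -0.65 to 1.01). Awat2 ranged over 3.45 to 16.4 CPM with ointment and 5.13 to 14.9 CPM with saline (log2 fold change 0.17 with SE 0.40, and adjusted p = 0.893 by edgeR; -0.055 without ointment 5). Far1 was at 79.8, 24.3, 94.5, 15.4 and 28.8 CPM in ointment libraries 1 to 5, against 86.5, 115, 21.7, 25.3 and 115 CPM in saline libraries 1 to 5. It fell into a low set (15.4 to 28.8 CPM) and a high set (79.8 to 115 CPM) of 5 libraries each, with both groups in each set (log2 fold change -0.58 with SE 0.63, and adjusted p = 0.723 by edgeR). Far2 ranged over 103 to 365 CPM with ointment and 169 to 385 CPM with saline (log2 fold change -0.41 with SE 0.37, and adjusted p = 0.653 by edgeR), and 12.6% of its exon length overlaps antisense genes. Soat1, which esterifies cholesterol, had nearly equal means, at 195 ± 13.1 CPM with ointment and 193 ± 44.2 CPM with saline (log2 fold change 0.01 with SE 0.15, and adjusted p = 0.977 by edgeR; 95% confidence interval -0.32 to 0.35).

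In ceramide synthesis, single subunits and isoforms differed in direction. Sptlc3, an alternative catalytic subunit of serine palmitoyltransferase, the first enzyme of the pathway (chromosome 2, 139493913 to 139637674), was at 5.77, 14.2, 7.76, 12.02 and 8.44 CPM in ointment libraries 1 to 5, against 21.8, 19.00, 20.7, 22.7 and 11.4 CPM in saline libraries 1 to 5. Saline 5 lay within the ointment range and the other 4 saline libraries lay above every ointment library (log2 fold change -0.98 with SE 0.28, and adjusted p = 0.103 by edgeR; adjusted p = 0.0209 by DESeq2). The other subunits among the members had estimates closer to 0. Sptlc1 averaged 73.6 ± 32.1 CPM with ointment and 106 ± 8.45 CPM with saline, with ointment 1 and ointment 4 as its low libraries (log2 fold change -0.53 with SE 0.29, and adjusted p = 0.405 by edgeR). Sptlc2 averaged 184 ± 37.95 CPM with ointment and 159.8 ± 19.05 CPM with saline (log2 fold change 0.20 with SE 0.16, and adjusted p = 0.6 by edgeR).

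Cers2, the widely expressed synthase of very long chain ceramides (chromosome 3, 95314791 to 95323599), was higher on average in ointment ulcers, at 131, 128, 127, 98.8 and 145 CPM in ointment libraries 1 to 5, against 74.9, 104, 81.1, 89.4 and 47.6 CPM in saline libraries 1 to 5. Saline 5 was the lowest library, and ointment 4 lay just below saline 2, so the groups overlapped (log2 fold change 0.67 with SE 0.20, and adjusted p = 0.119 by edgeR; adjusted p = 0.0475 by DESeq2). Cers3, which makes the ultra-long ceramides of the epidermis, ranged over 11.7 to 49.3 CPM with ointment and 16.98 to 78.8 CPM with saline (log2 fold change -0.70 with SE 0.54, and adjusted p = 0.585 by edgeR). Cers4, an isoform of sebaceous glands and hair follicles, averaged 109.8 ± 40.3 CPM with ointment and 149 ± 41.00 CPM with saline (log2 fold change -0.44 with SE 0.26, and adjusted p = 0.443 by edgeR). Cers6 was at 73.1, 87.01, 72.7, 8.15 and 107 CPM in ointment libraries 1 to 5, against 50.4, 53.97, 51.6, 60.6 and 56.5 CPM in saline libraries 1 to 5. Ointment 4 was far below every other library. With all libraries the gene did not pass (log2 fold change 0.35 with SE 0.49, and adjusted p = 0.797 by edgeR), and without ointment 4 it passed (adjusted p = 0.0459 by edgeR). Cers5 averaged 67.5 ± 11.2 CPM with ointment and 70.4 ± 14.9 CPM with saline (log2 fold change -0.06 with SE 0.17, and adjusted p = 0.914 by edgeR), and Cers1 was scarce at 0.777 ± 0.694 CPM with ointment and 1.16 ± 0.6801 CPM with saline (log2 fold change -0.57 with SE 0.68, and adjusted p = 0.752 by edgeR; -0.30 without ointment 5 and -1.24 without ointment 4). Cers1 shares 41.8% of its 50-base windows with other genes, chiefly Gdf1, whose exons overlap it on the same strand, so its counts are uncertain.

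The later enzymes of the branch had positive fold changes that did not pass. Degs1, which turns dihydroceramide into ceramide, averaged 231 ± 29.2 CPM with ointment and 213 ± 42.9 CPM with saline (log2 fold change 0.12 with SE 0.15, and adjusted p = 0.779 by edgeR). Degs2, which forms phytoceramide, averaged 21.7 ± 7.11 CPM with ointment and 16.8 ± 3.71 CPM with saline (log2 fold change 0.37 with SE 0.23, and adjusted p = 0.464 by edgeR). An antisense gene overlaps 10.8% of the exon length of Degs2. Ugcg, which glucosylates ceramide for loading into lamellar granules, was at 235, 237, 287, 206 and 293 CPM in ointment libraries 1 to 5, against 184, 295, 187, 253 and 63.97 CPM in saline libraries 1 to 5. Saline 5 was the single low library, below the next by a factor of 2.87 (log2 fold change 0.35 with SE 0.33, and adjusted p = 0.664 by edgeR).

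All genes that carry or oxidise barrier lipids had negative fold changes. Abca12, the lipid transporter of lamellar granules (chromosome 1, 71242276 to 71414910), was at 63.3, 99.2, 81.5, 114 and 89.1 CPM in ointment libraries 1 to 5, against 197, 174, 165, 164 and 98.7 CPM in saline libraries 1 to 5. Saline 5 lay within the ointment range, and the other 4 saline libraries were above all ointment libraries. Its adjusted p was the smallest of the 43 members and did not pass (log2 fold change -0.84 with SE 0.20, and adjusted p = 0.0749 by edgeR; 95% confidence interval -1.29 to -0.38). It passed without saline 5 (adjusted p = 0.0366 by edgeR, log2 fold change -0.97) and by DESeq2 (adjusted p = 0.011). Alox12b and Aloxe3, neighbouring genes on chromosome 11, encode the lipoxygenases that act in turn on the linoleate of acylceramides. Aloxe3 (69125896 to 69149115) was at 8.93, 21.3, 15.2, 15.7 and 14.6 CPM in ointment libraries 1 to 5, against 33.1, 20.6, 20.5, 17.9 and 27.4 CPM in saline libraries 1 to 5. Saline 1 and saline 5 were above all ointment libraries, and ointment 2 lay above the other 3 saline libraries (log2 fold change -0.66 with SE 0.24, and adjusted p = 0.199 by edgeR). Alox12b averaged 15.2 ± 6.25 CPM with ointment and 18.6 ± 4.15 CPM with saline, a smaller difference (log2 fold change -0.29 with SE 0.29, and adjusted p = 0.685 by edgeR). Pnpla1, which transfers linoleate to the ceramide chain, ranged over 12.4 to 24.2 CPM with ointment and 8.604 to 36.5 CPM with saline (log2 fold change -0.35 with SE 0.35, and adjusted p = 0.694 by edgeR), and 13.3% of its exon length overlaps an antisense gene. Slc27a4, which takes up and activates fatty acids in keratinocytes, ranged over 86.6 to 144 CPM with ointment and 81.6 to 283 CPM with saline (log2 fold change -0.34 with SE 0.34, and adjusted p = 0.697 by edgeR), with saline 2 and saline 3 as its high libraries.

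Levels of these genes varied from library to library within each group. Leaving out 1 library moved the log2 fold change by over 1.5 times, or turned it, for 29 of the 43 members tested, none of them called with all libraries. Saline 3 held the highest of the 10 values for 13 of the 43 members, among them Fasn, Acly, Elovl3, Elovl6, Elovl7, Far2 and Cers4. Saline 1 and ointment 5 did so for 9 members each. Ointment 1 held the lowest value for 10 members, including Abca12, Aloxe3, Alox12b and Sptlc3, and ointment 3 held it for 8, including all 4 genes of fatty acid synthesis. Within the ointment group, ointment 2 was the highest library for 21 of 43 members and was the lowest for 0. Within the saline group, saline 5 was the lowest for 19. Among the 38 members with a mean of at least 10 CPM, 11 (28.9%) had a step of 2-fold or more between neighbouring libraries when ranked, as had 15.8% of all tested genes at that level.

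**Figure D3:**
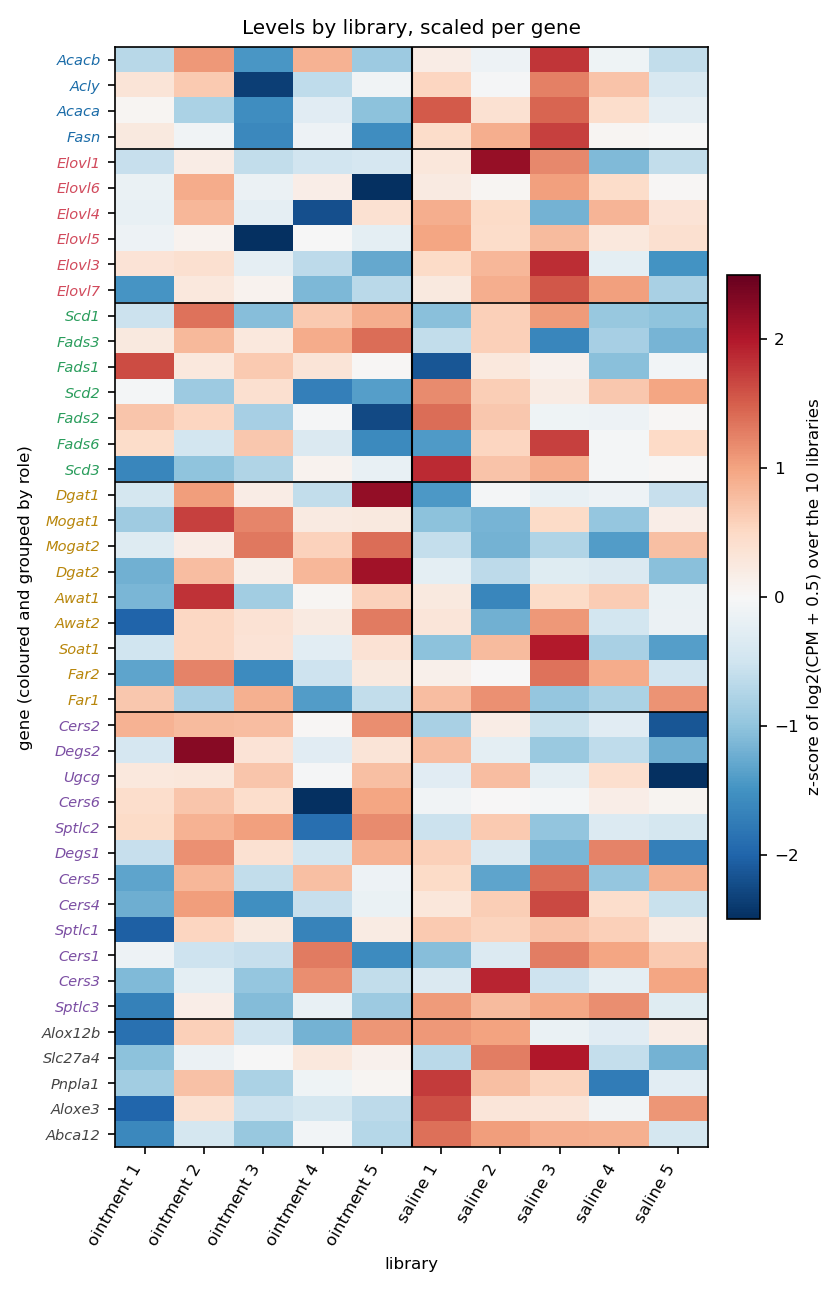
Each cell is the z-score of log2(CPM + 0.5) of 1 gene over the 10 libraries, ointment left and saline right of the black line, with genes grouped and coloured by role. Saline 3 is high for most of fatty acid synthesis and elongation, ointment 3 is low for fatty acid synthesis, and saline 5 is low for several ceramide genes.

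Some markers of several skin compartments were called by edgeR, which called 1.67% of all genes. Basal keratinocyte and fibroblast markers were abundant in every library of this ulcer tissue, and their sums are given below with those of the other lists. The 14 upper epidermis markers summed to 1781 to 3722 CPM with ointment and 4406 to 10915 CPM with saline, ranges that do not overlap. The most abundant, Krt1 and Krt10, were not called (log2 fold changes -2.03 and -1.805, adjusted p = 0.0564 and 0.0778 by edgeR). Of the 13 tested, 9 had negative and 4 positive fold changes. Called were 2 that fell (Krtdap and Dsc1) and 1 that rose (Krt2, at 47.5 ± 24.3 CPM with ointment and 0.257 ± 0.224 CPM with saline). The 10 sebaceous gland markers summed to 604 to 899 CPM with ointment and 892 to 1487 CPM with saline, and 1 of the 10 fell, Krt79, a keratin of the sebaceous duct and upper follicle (199 ± 76.5 CPM with ointment and 569.8 ± 148 CPM with saline; log2 fold change -1.52 with SE 0.29, and adjusted p = 0.0341 by edgeR). Krt79 had the largest difference in mean CPM of the sebaceous list. Mgst1, also abundant, averaged 311 ± 23.7 CPM with ointment and 297 ± 68.2 CPM with saline. Of the 10 genes, 8 had negative fold changes and 2 positive ones (Mgst1 and Plin5). Krt79 passed in 2 of the 10 fits with 1 library left out, with an adjusted p by edgeR up to 0.084 (without ointment 5). The sebocyte receptor gene Mc5r was listed at 0 in ointment 4, saline 2 and saline 3. The 10 hair follicle markers summed to 12.6 to 39.1 CPM with ointment and 36.8 to 708 CPM with saline. The sum of saline 5, at 36.8 CPM, lay within the ointment range, and the other saline libraries were at 184 to 708 CPM. Gene by gene, the groups did not overlap for 9 of the 10, against 6.54% of all genes. The exception was Tchh, at 8.42 to 35.8 CPM with ointment, 3.72 CPM in saline 3 and 15.6 CPM in saline 5. Of the 10 genes, 7 fell (Krt25, Krt27, Krt28, Krt71, Krt73, Hoxc13 and Lef1). The 10 adipocyte markers summed to 1211 to 2194 CPM with ointment and 580.1 to 1621 CPM with saline. Saline 3 was at 1621 CPM and the other saline libraries at 580 to 971 CPM. Of the 10 genes, 1 rose, Lep, at 156 ± 104 CPM with ointment and 8.71 ± 4.74 CPM with saline. In ointment 2 it was at 8.45 CPM, within the saline range of 2.96 to 15.9 CPM. Fabp4 made up most of the sum, at 1239 ± 277 CPM with ointment and 613 ± 252 CPM with saline. Positive fold changes were found for 6 of the 10 genes, among them Plin1 (log2 fold change 1.24 with SE 0.31, and adjusted p = 0.0763 by edgeR). The other 4 had negative ones, among them Adipoq (log2 fold change -1.29 with SE 0.41, and adjusted p = 0.137 by edgeR) and Adrb3 (log2 fold change -2.01 with SE 0.53, and adjusted p = 0.0882 by edgeR). Macrophage markers summed to 2370 to 4014 CPM with ointment and 1178 to 2182 CPM with saline, and 3 of the 9 rose (Adgre1, Cd68 and Trem2). None of these lists held a gene at 0 in all libraries. The part of these cell types in the values of the lipid genes was not tested. The 8 basal keratinocyte markers summed to 10598 to 19446 CPM with ointment and 10959 to 19508 CPM with saline, and 1 of the 8 rose (Lamb3). Neutrophil markers summed to 1672 to 7495 CPM with ointment and 851 to 2706 CPM with saline. Fibroblast markers summed to 17791 to 58629 CPM with ointment and 35675 to 54214 CPM with saline. Skeletal muscle markers summed to 942 to 5169 CPM with ointment and 1336 to 4488 CPM with saline. In these 3 lists 0 genes were called by edgeR. In the same order, 7 of 7, 2 of 6 and 0 of 6 had an unadjusted p under 0.05, against 17.1% of all genes.

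Scaled to exon length, the most abundant members in saline ulcers were Elovl4, Scd1 and Elovl6. Elovl4 averaged 182 CPM per kb with ointment and 259 with saline, Scd1 288 CPM per kb with ointment and 163 with saline, Elovl6 61.3 CPM per kb with ointment and 85.7 with saline and Degs1 89.3 CPM per kb with ointment and 82.3 with saline. Scd1 ranked first in ointment ulcers and Elovl4 in saline ulcers, but their libraries overlapped widely. At the other end, Mogat2, Cers1, Mogat1 and Elovl2 were each below 1 CPM per kb in both groups. Sebaceous wax enzymes lay in between, with Awat1 at 28.2 CPM per kb with ointment and 24.9 with saline and Awat2 at 4.896 CPM per kb with ointment and 4.35 with saline. Of the barrier genes, Abca12 stood at 6.04 CPM per kb with ointment and 10.8 with saline and Aloxe3 at 2.37 CPM per kb with ointment and 3.74 with saline.

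**Figure D4:**
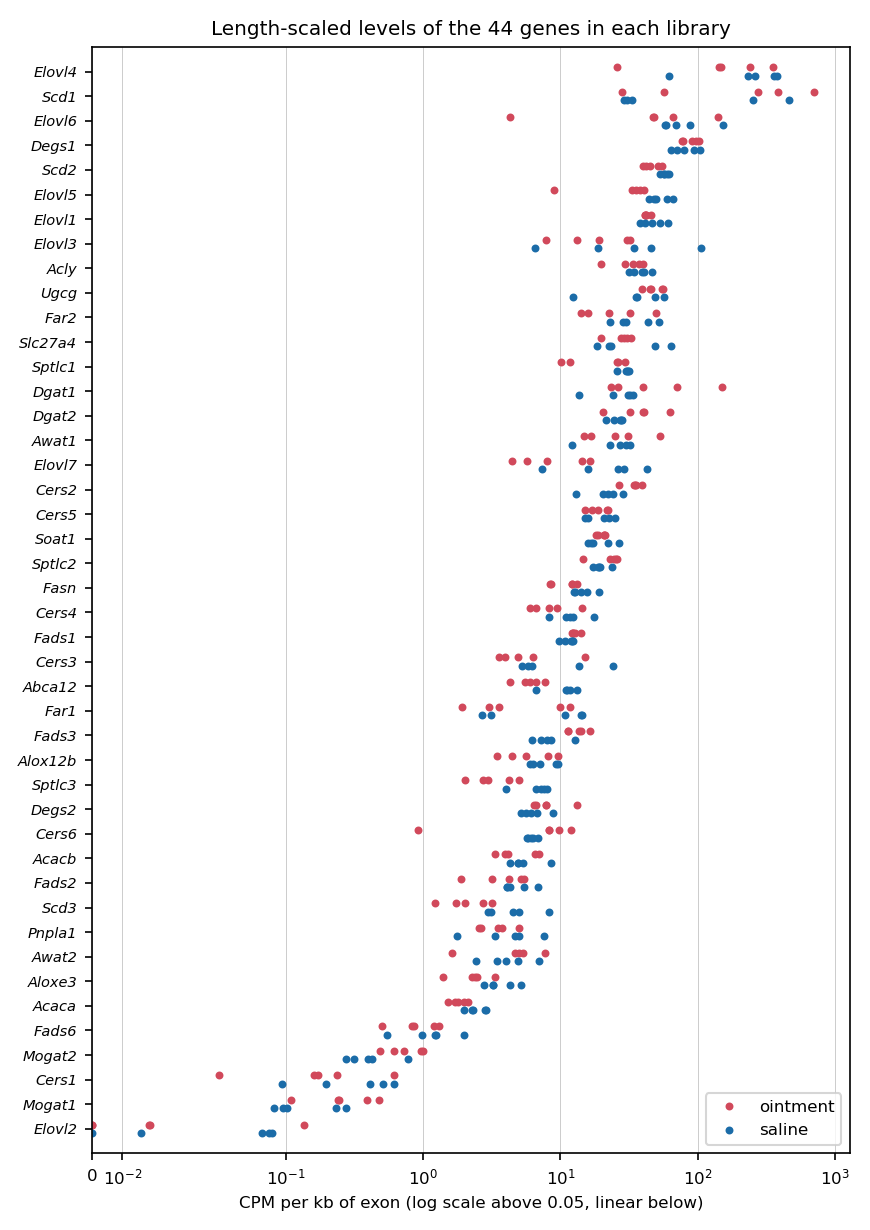
CPM per kb of exon of the 44 members in each library (ointment above saline within a gene), ordered by the saline mean. Most genes lie between 1 and 100 CPM per kb; Elovl4 and Scd1 lead and Elovl2 is lowest.

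Other genes of the same pathways included 3 that passed, where edgeR called 1.67% of all genes. Of 14 regulators and suppliers of lipogenesis, edgeR called 0, and 3 had an unadjusted p under 0.05, against 17.1% of all genes. Srebf1, named here for its role as the transcription factor that drives these enzymes, had close means, at 71.7 ± 5.36 CPM with ointment and 76.7 ± 6.51 CPM with saline (log2 fold change -0.10 with SE 0.10, and adjusted p = 0.681 by edgeR). Scap, the escort that carries its protein to the Golgi, averaged 54.1 ± 8.76 CPM with ointment and 74.2 ± 6.37 CPM with saline, with no overlap between groups and no call (log2 fold change -0.46 with SE 0.12, and adjusted p = 0.101 by edgeR; adjusted p = 0.0394 by DESeq2). Of 16 genes that acylate glycerol or activate fatty acids, 2 rose and 0 fell. An unadjusted p under 0.05 by edgeR was found for 4 of them (3 higher, 1 lower with ointment). Lpin2, a phosphatidate phosphatase that yields diacylglycerol, was at 82.8, 91.98, 69.2, 69.2 and 84.3 CPM in ointment libraries 1 to 5, against 50.7, 47.5, 43.05, 42.6 and 51.6 CPM in saline libraries 1 to 5. All ointment libraries lay above all saline libraries, and the gene rose (log2 fold change 0.76 with SE 0.11, and adjusted p = 0.0159 by edgeR). Agpat2, which turns lysophosphatidic acid into phosphatidic acid, was at 56.7, 61.5, 48.8, 58.3 and 61.5 CPM in ointment libraries 1 to 5, against 29.9, 39.7, 41.7, 35.9 and 32.3 CPM in saline libraries 1 to 5. It likewise showed no overlap and rose (log2 fold change 0.68 with SE 0.12, and adjusted p = 0.0278 by edgeR).

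Of 22 genes that process barrier lipids, 1 fell and 0 rose. An unadjusted p under 0.05 by edgeR was found for 8 of them (1 higher, 7 lower with ointment). The share over all genes was 17.1% (8.59% higher, 8.56% lower). Acer1, an alkaline ceramidase of the upper epidermis, was at 42.6, 63.4, 37.1, 59.6 and 43.02 CPM in ointment libraries 1 to 5, against 121, 79.8, 114, 80.2 and 77.8 CPM in saline libraries 1 to 5. Every ointment library lay below every saline library, and the gene fell (log2 fold change -0.94 with SE 0.20, and adjusted p = 0.0472 by edgeR). Cyp4f39, which hydroxylates the ultra-long chains of acylceramides in mice, averaged 8.34 ± 2.76 CPM with ointment and 20.04 ± 5.79 CPM with saline, with no overlap and no call (log2 fold change -1.26 with SE 0.28, and adjusted p = 0.0592 by edgeR; adjusted p = 0.00167 by DESeq2). The median log2 fold changes of the 3 lists were -0.06, -0.007 and -0.10. Lpin2 passed whichever library was left out. Agpat2 passed in 4 of the 10 fits with 1 library left out (adjusted p by edgeR up to 0.0675, without ointment 5). Acer1 passed in 1 of them (adjusted p by edgeR up to 0.114, without ointment 5). With 4 libraries per group (without saline 1 and ointment 5), none of Lpin2, Agpat2, Acer1 and Krt79 passed (adjusted p by edgeR 0.078, 0.122, 0.2 and 0.159).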

How the data were processed

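RNA was extracted with an RNeasy kit and sequenced after SMARTer mRNA library preparation, per the labels' protocols. These do not say that strand was kept, so reads of overlapping sense and antisense genes cannot be separated. The build was GRCm38, per the submitters' processing notes, while aligner, counting program and annotation are not given in those sources. The authors deposited whole numbers per gene, which the deposit calls raw counts. Of the values from 1 to 100, 33.4% were multiples of 4, where 25% would be even, so the deposited numbers were treated here as estimated counts, a choice made from the values and not stated by the authors, and they needed no rounding. Gene positions, exon lengths and shared 50-base windows came from GENCODE mouse release M21 on GRCm38, and promoters from RefSeq (GRCm38.p6).

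Groups were compared with edgeR 4.0.16 in R 4.3.3, using its quasi-likelihood test with robust dispersion, TMM factors and group as the only term. The fit covered the 18509 genes that passed filterByExpr (minimum count 10, minimum total 15). P-values were two-sided and Benjamini-Hochberg adjusted across all of these genes (threshold 0.05). All folds are ointment over saline, the SE is the size of the log2 fold change divided by the root of F, and levels are mean ± SD over 5 libraries. Alternatives were other scalings and filters, DESeq2 1.42.0, limma 3.58.1 voom, no robust dispersion, deposited values divided by 4, a block for replicate number, and each library left out. A fit with 4 libraries per group was chosen after seeing the data. In counts simulated for this comparison on 18509 genes, edgeR recovered 18% of 100 genes given a 2-fold change and 61% of 100 given a 4-fold change, and 3.66% of its 82 calls were false. No other gene was given a change, and the data gave 310 calls, so recovery in the data can differ.

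The 44 members and all lists were chosen with earlier results of these data known. By the rule for named genes, a member that passed the threshold or whose groups did not overlap is given in every library, and up to 4 further members of each role with the smallest p-values are given with values. Values of the remaining members were added beyond that rule, and those shown in every library among them (Scd1, Awat1, Far1, Cers6 and Ugcg) were chosen after their values were seen. Genes named from the other lists were to be up to 4 with the smallest p-values. Called genes beyond these, Srebf1, Mc5r, Mgst1, Krt1, Krt10, Tchh and Adipoq were also chosen after their values were seen. For 2 listed symbols, Mogat3 and Sts, no row was matched.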

Additional observations from a re-analysis of the deposited data

Results flagged for a closer look

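In 6 of the 86 groups of 5 values examined (43 genes in each treatment), 1 library stood apart from the other 4 by Dixon's criterion, which flags about 1 in 20 groups by chance. Acacb was at 82.0 CPM in saline 3, against 41.1 to 51.8 CPM in the other saline libraries. Elovl1 was at 125 CPM in ointment 2, where the other ointment libraries lay between 112 and 115 CPM. Degs2 stood at 34.0 CPM in ointment 2, with 16.6 to 20.3 CPM in the rest of its group. Elovl5 was at 31.5 CPM in ointment 3 and at 117 to 142 CPM in the remaining ointment libraries. In ointment 4, Sptlc2 was low at 118 CPM (186 to 211 CPM in the others) and Cers3 was high at 49.3 CPM (11.7 to 20.4 CPM in the others).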

How the results depend on the processing

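edgeR called 0 members under every other scaling and filter tried, without robust dispersion, after division of the values by 4 and with 4 libraries per group (without saline 1 and ointment 5, chosen after seeing the data). limma voom also called 0, and DESeq2 called 4. With 1 library left out the count was 0 to 1, the single calls being Cers6 without ointment 4, Fads3 without saline 2 and Abca12 without saline 5. Members with an unadjusted p under 0.05 numbered 14, and 8 to 15 with 1 library left out (8 without ointment 5, 8 without saline 3 and 9 without saline 1). They numbered 5 with 4 libraries per group. Over all genes, 310 calls became 1483 with DESeq2, 59 with 4 libraries per group and 102 (without ointment 3) to 422 (without ointment 4) with 1 library left out. The left-out count was below 310 by over 1.5 times for every library but ointment 4 and saline 5. A replicate block gave 0 calls over all genes and among the members, and 8 members with an unadjusted p under 0.05. Libraries with the same number deviated from their group means with correlations of -0.077 to 0.056, and only number 1 correlated best with its own, so the numbers do not show a pairing. The calls of Lpin2, Agpat2, Acer1 and Krt79 were lost with the block (adjusted p by edgeR 0.141, 0.18, 0.215 and 0.185).

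Among the 50 genes followed across 21 alternatives, the sign turned for 15 pairs of a gene and an alternative. Soat1 turned with upper-quartile scaling (-0.013), library sizes alone (-0.044) and 4 libraries per group (-0.053), and ranged from -0.054 to 0.133 with 1 library left out. With 1 library left out, Awat1 ranged from -0.178 to 0.339, Awat2 from -0.055 to 0.393, Acacb from -0.313 to 0.022 and Cers5 from -0.140 to 0.020. Awat2 also turned with 4 libraries per group (-0.0081), as did Fads2 (0.0069), and Cers6 turned with limma voom (-0.016). The cause was not tested. All 6 elongases and all 5 barrier genes had negative values in all 21 alternatives. The 95% confidence intervals of 11 members, Scd1, Elovl3, Elovl4, Elovl6, Elovl7, Dgat1, Mogat1, Far1, Cers1, Cers3 and Cers6, spanned over 2 log2 units, so these estimates were imprecise. Changes could go undetected in the other members too, as the simulation recovered 18% of genes given a 2-fold change.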
